A study of Mus musculus with 4 samples.

Results

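The 8 homeostatic microglia marker genes described here are Tmem119, Sparc, Olfml3, Fcrls, Selplg, Cx3cr1, Slc2a5 and Gpr34. They were chosen by name, and each symbol was found as 1 gene in the deposited gene table, out of 28692 genes in all. They were followed in 4 single-cell libraries, each made from the brain (cortex and hippocampus) of 1 male C57BL/6J mouse at postnatal day 90. All 4 mice had been given phosphate-buffered saline (PBS) into the tail vein, 24 hours before sacrifice by the labels (the study's methods give a shorter interval), and the tissue was broken up by cold Dounce homogenisation, which is mechanical and uses no enzymes. The labels therefore give 1 group, cold Dounce, PBS (n = 4), with no uninjected or enzyme-treated mice in it, and the comparisons below are between cells of the same libraries. The study sorted myeloid cells as CD45+ and CD11b+, so macrophages and monocytes that carry both proteins can be among the cells. CX3CR1, itself the product of a member, was not used to sort these cells, by the study's methods. The 13 further genes of the identity list followed here, among them C1qa and Csf1r, summed to 68074 to 70139 UMIs per 1000000 in the bulk of the cells. Neutrophil markers were at 0. The study describes a clogged and repeated sort of its last mouse, which it calls sample 4. Its signature of activation during handling, with immediate early genes, Ccl3 and Ccl4 among its genes, was almost limited to that sample. The study relates this to added time at room temperature, temperature changes or both. It also reports rare Ccl4-positive microglia in snap-frozen tissue. The labels number the libraries differently. Whether sample 4 is library 4 here, which is numbered by accession order, is not given by them.

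Microglia are the resident macrophages of the brain tissue, and in the undisturbed brain they hold a set of transcripts used as markers of their resting state. The 8 genes belong to that set, which does not mean that other myeloid cells lack them. Cx3cr1 encodes the receptor for the neuronal chemokine fractalkine, Gpr34 a receptor for lysophosphatidylserine, and Fcrls a surface protein related to Fc receptors. Selplg encodes the P-selectin ligand PSGL-1, and Tmem119 a transmembrane protein widely used to tell microglia from other macrophages. Sparc and Olfml3 encode secreted glycoproteins of the extracellular matrix, and Slc2a5 the fructose transporter GLUT5. Microglia that respond to interferon, inflammation or injury are known to lower such genes to different degrees, which is why their level is often read as a measure of identity.

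The genes lie on 6 chromosomes of GRCm38 (GENCODE M21), and all are protein coding. Tmem119 (ENSMUSG00000054675) spans chr5:113793729-113800516 and Selplg (ENSMUSG00000048163) spans chr5:113818536-113832644, both on the minus strand, with 18019 bases between them. Fcrls (ENSMUSG00000015852) spans chr3:87250758-87263738 and Olfml3 (ENSMUSG00000027848) chr3:103722222-103738001, both on the minus strand. Sparc (ENSMUSG00000018593) spans chr11:55394500-55423183 on the minus strand, Slc2a5 (ENSMUSG00000028976) chr4:150119283-150144169 on the plus strand, and Gpr34 (ENSMUSG00000040229) chrX:13632089-13640858 on the plus strand. The annotated Cx3cr1 gene (ENSMUSG00000052336) covers chr9:119901616-120069879 on the minus strand, 168264 bases in which 9 other annotated genes lie, among them Gorasp1, Csrnp1 and Xirp1 on the same strand. Gpr34 lies inside Cask, which is on the opposite strand. No other annotated gene overlaps the remaining 6.

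Promoter sequences, from 250 bases before to 50 after the start site, were available in RefSeq (GRCm38.p6) for 5 of the 8 genes, Fcrls, Olfml3, Slc2a5, Cx3cr1 and Sparc. Tmem119, Selplg and Gpr34 had no entry. The motifs searched on both strands were GAGGAA, a core bound by PU.1 and other ETS factors, TGANTCA, the AP-1 motif bound by Fos and its partners, and the core of the interferon response element. The windows of Sparc and Cx3cr1 are shown because these genes differed most and least between the MHC II-high and the unclassed cells described below, and that of Fcrls because it holds the GAGGAA match, in capitals. They are the minus-strand windows chr3:87263475-87263774 (Fcrls), chr11:55420031-55420330 (Sparc) and chr9:120068247-120068546 (Cx3cr1), written 5′ to 3′.
Fcrls: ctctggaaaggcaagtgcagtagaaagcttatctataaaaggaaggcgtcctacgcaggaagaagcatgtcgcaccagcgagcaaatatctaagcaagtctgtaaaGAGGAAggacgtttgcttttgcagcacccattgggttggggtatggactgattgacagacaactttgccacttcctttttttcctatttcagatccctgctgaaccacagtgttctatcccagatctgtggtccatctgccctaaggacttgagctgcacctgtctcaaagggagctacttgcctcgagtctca
Sparc: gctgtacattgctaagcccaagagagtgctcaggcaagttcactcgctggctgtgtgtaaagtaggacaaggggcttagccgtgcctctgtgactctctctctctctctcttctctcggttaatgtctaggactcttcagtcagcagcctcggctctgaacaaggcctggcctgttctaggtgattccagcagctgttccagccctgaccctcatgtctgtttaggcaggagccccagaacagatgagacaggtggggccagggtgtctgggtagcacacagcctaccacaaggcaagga
Cx3cr1: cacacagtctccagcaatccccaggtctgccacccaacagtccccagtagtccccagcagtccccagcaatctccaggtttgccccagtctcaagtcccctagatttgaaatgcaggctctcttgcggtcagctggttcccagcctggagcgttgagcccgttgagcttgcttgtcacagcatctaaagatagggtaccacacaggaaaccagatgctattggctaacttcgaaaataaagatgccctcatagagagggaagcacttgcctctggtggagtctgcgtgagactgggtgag
The match in Fcrls begins 144 bases before the start site, and GAGGAA was in 28.3% of all 32851 promoter windows of the same length. Neither TGANTCA (7.81% of all windows) nor the interferon response element core (3.44%) was found in the 5 windows, which says only that these letters are not in these stretches.

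UMIs (unique molecular identifiers) each stand for 1 captured transcript. Cells with fewer than 400 genes, or with over 10% of UMIs from mitochondrial genes, were dropped, and the libraries then held 3576, 3692, 2576 and 3158 cells. The deposited totals ranged from 5867333 to 11275195 UMIs per library and the median cell from 1905 to 2936 UMIs. Between libraries, 81 cell barcodes (0.627% of those present) occurred more than once. For values per cell, each cell was thinned at random to 1000 UMIs, which left 12737 of 13002 cells. Library 4 stood apart in its immediate early cells (defined below), which made up 7.2% of its cells against 0.241 to 0.315% in the other libraries.

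All 8 genes were abundant and close in level between the 4 mice. Their level in a library is given as CPM (UMIs per 1000000 UMIs of the library), without length scaling because 3′ counting takes 1 tag per transcript. Summed, the 8 genes reached 22865, 23072, 23394 and 22814 CPM in libraries 1 to 4, or 23036 ± 264 CPM (SD, n = 4). Selplg was the highest of the 8, with 4589, 4529, 4696 and 4769.8 CPM (4646 ± 108). Sparc followed with 3514, 3661, 3588 and 3532 CPM (3574 ± 65.9), and its libraries overlapped with those of no other member.

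The next genes in order could not be ranked beyond the spread between libraries. Cx3cr1 had 3255, 3047, 3431 and 2907 CPM (3159.9 ± 230.5), the widest relative spread of the 8 at 7.29%. Tmem119 had 2989.5, 2877, 2977 and 3069.5 CPM (2978 ± 79.1). Fcrls had 2617, 2975, 2887 and 2783 CPM (2815 ± 154), and Olfml3 had 2895, 2954, 2614 and 2672 CPM (2784 ± 166). Each of these 4 overlapped with its neighbour in the order. Gpr34 lay below them with 2358, 2365, 2520.3 and 2355 CPM (2399.8 ± 80.5). Slc2a5 was the lowest, with 648, 664, 682 and 725 CPM (679.7 ± 33.5). The SD of log2 levels had a median of 0.06 over the 8 genes, 0.09 over the 267 genes with a mean of at least 500 CPM and 0.11 over the 7656 genes with at least 10 CPM.

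**Figure D1:**
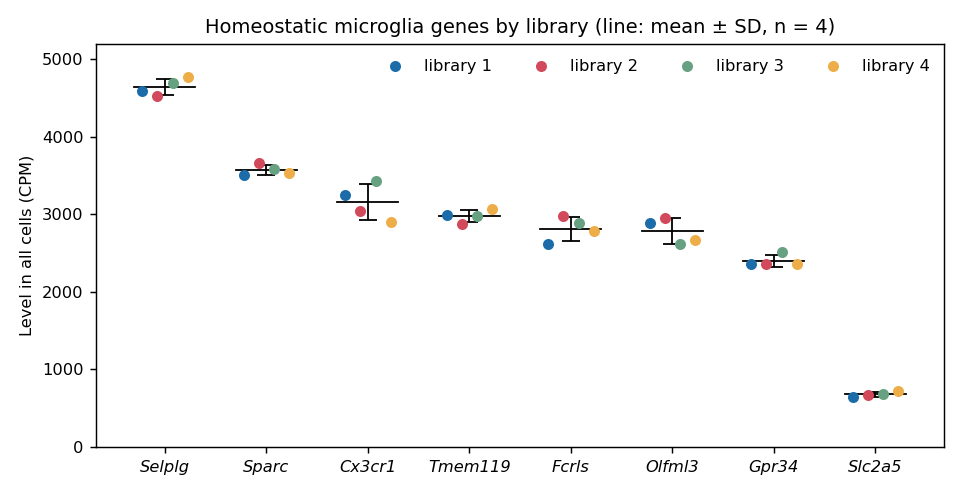
Level of each gene in all cells of each library, in CPM (linear axis from 0); points are the 4 libraries, and lines with bars the mean ± SD. Selplg lies between 4529 and 4769.8 CPM and Slc2a5 between 648 and 725 CPM, and the libraries of Cx3cr1, Tmem119, Fcrls and Olfml3 overlap.

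Dixon's range test (two-sided) asked whether 1 library lay apart, that is, whether its gap to the nearest other, divided by the range of all 4, passed the 95% critical value. It set 1 of the 8 genes apart, beside 4.62% of all genes tested. Gpr34 was higher in library 3 than in the other libraries, with a ratio of 0.938 and 1.07-fold between the highest and the lowest library. That call was lost with TMM scaling (0.653), with DESeq2 size factors (0.629), in the cells outside the classes below (0.815) and in cells with at least 1000 genes (0.536).

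Nearly every cell held these transcripts. In cells thinned to 1000 UMIs, Selplg was detected in 97.8, 98.5, 97.6 and 97.6% of cells in libraries 1 to 4, Sparc in 95.2 ± 0.809% and Cx3cr1 in 94.6 ± 0.790% (SD, n = 4). Tmem119 was detected in 93.2 ± 0.280%, Olfml3 in 90.7 ± 1.5%, Fcrls in 89.8 ± 1.57% and Gpr34 in 88.6 ± 0.858%. Slc2a5, at a mean of 0.689 UMIs per 1000, was detected in 48.1 ± 1.87% of cells. The median cell held UMIs of 7 of the 8 genes in every library, and between 29.8 and 31.5% of cells held all 8. The median cell had 23 UMIs of the 8 genes per 1000 in every library.

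The genes varied from cell to cell a little more than counting alone gives. The Fano factor, the variance of UMIs over cells divided by the mean (1 for counting noise), ran from 1.11 for Slc2a5 and 1.18 for Cx3cr1 to 1.33 for Olfml3 and 1.41 for Fcrls, each the mean of 4 libraries. Over the 253 genes with a mean of 0.5 to 5 UMIs per thinned cell it had a median of 1.07, with 80% of them between 1.02 and 1.22. In the cells outside the classes below, the mean Pearson correlation of the 28 pairs, on log(1 + UMIs), was 0.0519 ± 0.00489 (SD, n = 4 libraries). All 28 pairs were positive in every library. These correlations are a description: cells of a library share its depth and free RNA, and at a few UMIs per gene counting noise keeps every r low.

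Selplg and Tmem119, the neighbours on chromosome 5, had the highest correlation, with r of 0.0858, 0.0977, 0.166 and 0.133 in libraries 1 to 4. Olfml3 with Selplg (0.0849) and Sparc with Selplg (0.0790) followed. The 3 lowest pairs all held Cx3cr1, with Sparc (0.0175), Fcrls (0.0179) and Slc2a5 (0.0187). Taken against the sum of the other 7 genes, Selplg had the highest correlation (0.180 ± 0.0202) and Cx3cr1 the lowest (0.0754 ± 0.00973). Together, the pairs made the variance of the summed UMIs 1.35 ± 0.0220 times the sum of the 8 single variances, and the Fano factor of the sum was 1.70 ± 0.0757.

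**Figure D2:**
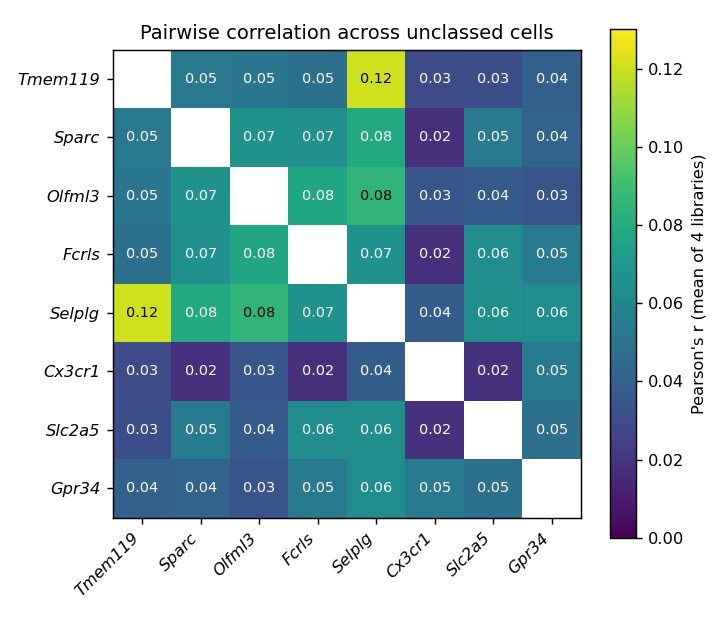
Pearson's r between the 8 genes across unclassed cells thinned to 1000 UMIs, on log(1 + UMIs), as the mean of 4 libraries (colour and printed value). The pair Tmem119 and Selplg stands out at 0.12, and the row of Cx3cr1 holds the 3 lowest values, all 0.02.

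Of 1548 other genes compared, those whose UMIs followed the sum of the 8 most closely included P2ry12 (r = 0.253), Lgmn (0.144), C1qa (0.139), Ctsd (0.123), C1qc (0.122), Csf1r (0.104), Cst3 (0.101), P2ry13 (0.1) and Vsir (0.0819), as means over 4 libraries. P2ry12 and P2ry13 are nucleotide receptors of microglia, Lgmn and Ctsd lysosomal enzymes, and C1qa and C1qc parts of complement C1q. Those that ran most against it were Rps29 (-0.193), Lyz2 (-0.191), Rps27 (-0.158), Apoe (-0.156) and Fth1 (-0.147). The median gene was at 0.00127. The summed UMIs of ribosomal protein genes correlated with the sum of the 8 at -0.394 ± 0.0339, the mitochondrial share at -0.108 ± 0.0167 and the log of depth at -0.0938 ± 0.0116. A cell's fixed total of 1000 UMIs ties these shares to one another, and the part of that in the values was not tested.

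To ask which cells hold less of the 8 genes, thinned cells were called by UMIs of other genes. Interferon cells had at least 3 UMIs of 10 interferon-induced genes (52 cells), chemokine cells at least 3 of Ccl3 and Ccl4 (20 cells) and immediate early cells at least 2 of Fos, Fosb, Egr1, Ier2, Dusp1 and Atf3 (250 cells). MHC II-high cells had at least 10 UMIs of Cd74, H2-Aa, H2-Ab1 and H2-Eb1, which encode MHC class II and its chaperone (43 cells), and MHC II-few cells 2 to 9 (90 cells). The 12257 cells in none of these, called unclassed, were the reference, and 25 cells of several classes were left out. UMIs were summed per class and library, pools under 5 cells (chemokine in library 1) were left out of the test, and edgeR's quasi-likelihood test with library as a term compared classes over the 4 libraries. All comparisons share the unclassed cells. The TMM scaling of these pools moved fold changes downward: over all 7642 genes tested, the median log2 change was -0.76 with TMM and -0.11 with library totals in chemokine cells, -0.37 and -0.11 in interferon cells, -0.53 and -0.39 in MHC II-high cells, -0.19 and -0.08 in MHC II-few cells and -0.12 and -0.01 in immediate early cells. Changes of the 8 genes as a set are therefore given with both scalings. Single log2 changes and differences between classes are from TMM unless library totals are named, and the CPM values rest on library totals.

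MHC II-high cells had far less of all 8 genes, and this was the only class in which the lower level held with TMM, with library totals and with DESeq2. The 8 genes summed to 5063, 11267, 1849 and 4394 CPM in the MHC II-high cells of libraries 1 to 4, against 22971, 23164, 23529 and 23234 CPM in unclassed cells. The class thus held 0.244 ± 0.173 of the unclassed level (SD, n = 4). All 8 genes were called lower (adjusted p under 0.05), beside 6.08% of all genes tested with TMM, 4.92% with library totals and 2.45% with DESeq2. How the 8 falls differ from one another was not tested. The SE and p-values rest on a spread estimated over the pools of all classes, and the ratio varied more between libraries here than in the other classes. The median log2 change of the 8 genes was -2.30 with TMM and -2.13 with library totals.

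Among the receptors, Cx3cr1 had the smallest estimated fall. It had 1357, 2534, 452 and 922 CPM in MHC II-high cells and 3274, 3054, 3435 and 2952 CPM in unclassed cells. The highest MHC II-high library, library 2, was below the lowest unclassed one. Its log2 change was -1.34 ± 0.23 (SE, adjusted p = 1.5e-07) with TMM and -1.14 with library totals. Gpr34 had 404, 863, 41.1 and 397 CPM against 2367, 2373, 2538 and 2398 CPM. It had the largest estimated fall among the receptors, by 2.50 ± 0.26 on the log2 scale with TMM (adjusted p = 4.5e-20), and its change was -2.32 with library totals. Fcrls had 404, 1159, 164 and 551 CPM against 2635, 2993, 2900.3 and 2839 CPM, a log2 change of -2.33 ± 0.25 (adjusted p = 1.12e-18).

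The adhesion ligand and the transmembrane protein had smaller estimated falls than most of the others, an order that was not tested. Selplg had 991, 2103, 657 and 935 CPM in MHC II-high cells against 4604, 4551, 4729.7 and 4878 CPM in unclassed cells (log2 change -2.06 ± 0.23, adjusted p = 1.25e-16). Tmem119 had 624, 1617, 246 and 692 CPM against 2992, 2889.8, 2999 and 3113 CPM (-1.96 ± 0.24, adjusted p = 2.75e-14). For both, every MHC II-high library was under every unclassed one.

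The secreted proteins included the gene with the largest estimated fall of the 8, close to that of Gpr34. Sparc had 624, 1267, 123 and 436 CPM in MHC II-high cells against 3536, 3675, 3600.1 and 3592 CPM in unclassed cells. It fell by 2.62 ± 0.25 on the log2 scale with TMM (adjusted p = 2.46e-23), and its change was -2.43 with library totals. Olfml3 had 514, 1456, 164 and 320.3 CPM against 2910.2, 2963, 2637 and 2719 CPM (-2.35 ± 0.25, adjusted p = 9.52e-19). The transporter Slc2a5 had 147, 269.6, 0 and 141 CPM against 653, 667, 689 and 744 CPM (-2.27 ± 0.32, adjusted p = 7.72e-11). Its count of 0 in library 3 allows up to 123 CPM (3 UMIs, counting error only). For all 8 genes library 2 kept the highest level of the MHC II-high pools and library 3 the lowest.

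**Figure D3:**
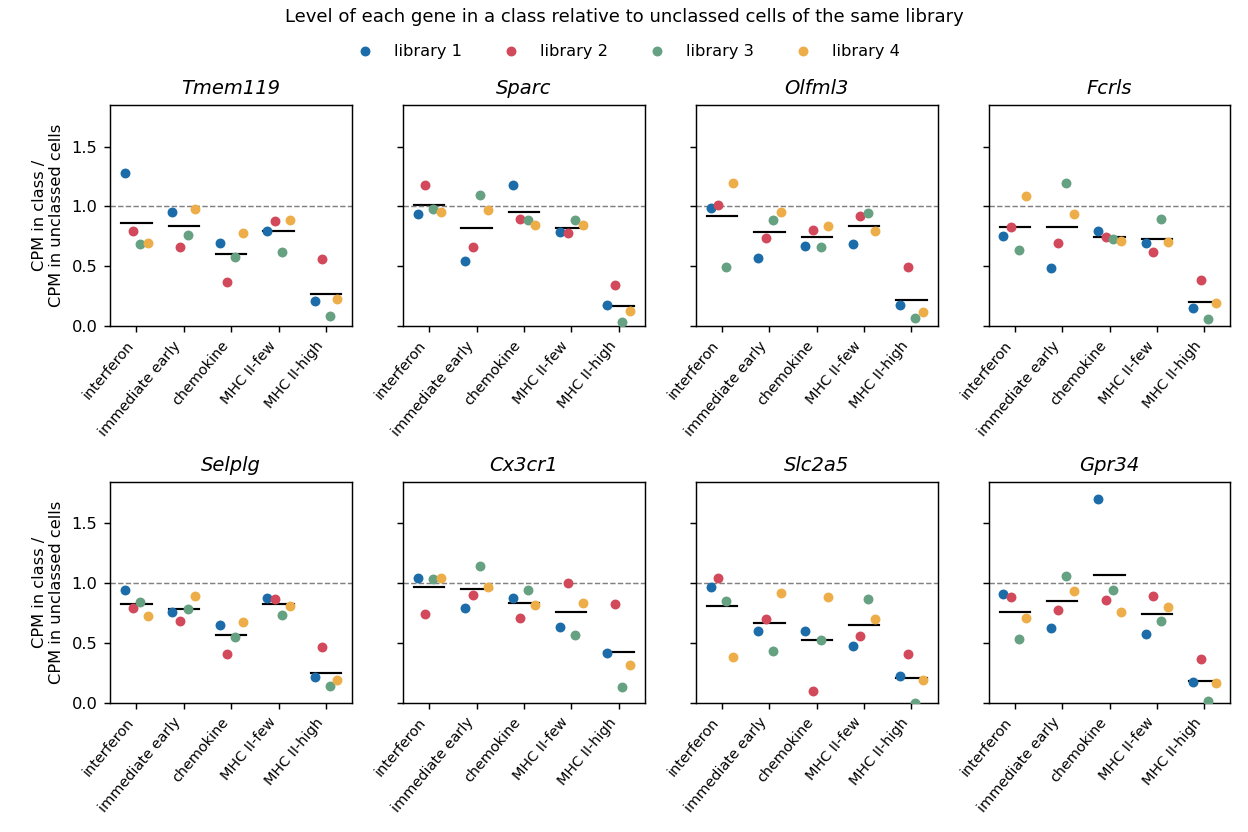
Level of each gene in a class divided by its level in unclassed cells of the same library (CPM ratio, linear axis from 0); points are libraries, lines their means, and the dashed line is no difference. MHC II-high ratios lie below 1 in all 4 libraries for all 8 genes, while the other classes scatter nearer 1; the chemokine pool of library 1 holds 3 cells.

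Cell by cell, MHC II-high cells had a median of 3 UMIs of the 8 genes per 1000, against 23 in unclassed cells, and 2 of the 8 genes detected against 7. Their depth before thinning was not lower (median 3133 against 2441 UMIs). Sparc was detected in 20.9% of the 43 cells (exact 95% interval 10.0 to 36.0%) and Slc2a5 in 9.30% (2.59 to 22.1%), while Cx3cr1 was detected in 60.5% (44.4 to 75.0%) and Selplg in 51.2% (35.5 to 66.7%). Intervals cover counting error only.

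Markers of other cell types moved with this class. Markers of border-associated macrophages (7 of 8 genes detected, Lyve1 at 0) summed to 534 to 1578 CPM in MHC II-high cells and 252 to 283 CPM in unclassed cells, where Stab1 gave 84.9% of them. Markers of monocytes (4 of 6 detected, Ly6c2 and Vcan at 0) summed to 647 to 3862 against 9.40 to 27.1 CPM, and markers of dendritic cells (3 of 5 detected, Xcr1 and Clec9a at 0) to 0 to 807 against 1.47 to 3.07 CPM. Of the 43 cells, 39 (90.7%) held at least 2 UMIs of these lists when all UMIs were counted, before thinning. The share was 13.4% among unclassed cells with at least 5 UMIs of the 8 genes, whose depth was lower (median 2441 against 3133 UMIs). The 4 remaining MHC II-high cells had a median of 5.5 UMIs of the 8 genes, and 1 of them had under 5. T, NK cell, neutrophil and proliferation markers were at 0 in the class. In an alternative added after the data were seen, cells with at least 2 border macrophage or monocyte UMIs after thinning were left out. Dendritic cell markers were not part of that cut. Of the class, 1 pool remained, the 10 cells of library 4. Its 8 log2 changes ran from -3.69 to -2.34, a value of 1 sample whose spread is assumed to be that of the other pools. Before thinning, only 4 cells of the class had under 2 marker UMIs, so some of these 10 still held such markers. How far the lower level comes from cells of other types was not tested beyond these values.

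The same cells were poor in the other identity genes followed here. That list holds C1qa, C1qc and Csf1r and is not limited to genes that only microglia express. Of 13 further identity genes, all 13 were called lower in MHC II-high cells, with a median log2 change of -1.36 (-1.18 with library totals). P2ry12 (-2.60 ± 0.24, adjusted p = 4.62e-25), Adgrg1, an adhesion receptor (-2.27 ± 0.42, adjusted p = 2.48e-06) and P2ry13 (-2.03 ± 0.28, adjusted p = 6.30e-11) were among those that fell most. Of 8 general myeloid genes, 3 were called lower (Cst3, Aif1 and Ctss) and none higher. Of 3 genes of the disease-associated microglia list that were abundant enough to test, Apoe (5.40 ± 0.25, adjusted p = 4.26e-104) and Lgals3 (5.69 ± 0.39, adjusted p = 1.32e-46) rose, beside 3.11% of all genes higher. Neither rise was confined to this class. Lgals3 was also called higher in immediate early (4.85 ± 0.39), MHC II-few (4.34 ± 0.44) and chemokine cells (3.97 ± 0.88). Apoe was also called higher in MHC II-few cells (0.95 ± 0.23). With library totals 2 of the 3 genes were called higher in immediate early cells. Apoe changed there by 1.03 with library totals and by 0.74 ± 0.24 with TMM (edgeR, adjusted p = 0.646).

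Cells with few MHC II UMIs held somewhat less of the 8 genes, but none passed the test. The sum was 16733, 19468, 17894 and 18794 CPM in libraries 1 to 4, or 0.785 ± 0.0498 of the unclassed level. All 8 genes were below the unclassed level in all 4 libraries, from a mean ratio of 0.650 ± 0.172 for Slc2a5 to 0.836 ± 0.121 for Olfml3. With edgeR, 0 of the 8 were called lower, beside 0% of all genes, and 8 had an unadjusted p under 0.05 with TMM and 4 with library totals, beside 6.12% and 5.76% of all genes in either direction. DESeq2 also called 0, with 3 at an unadjusted p under 0.05 (3.02% of all genes). The changes were -0.83 to -0.43 with TMM and -0.68 to -0.27 with library totals. The median cell had 19 UMIs of the 8 genes per 1000. Dendritic cell markers were at 0 here, border macrophage markers summed to 150 to 260.1 CPM with Pf4, Cd163, Lyve1 and Cbr2 at 0, and monocyte markers to 0 to 296 CPM.

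In chemokine cells, the call depended on the scaling. The 8 genes summed to 20559.5, 15055, 17345 and 17889 CPM, the first from 3 cells, or 0.763 ± 0.102 of the unclassed level. Selplg had 2993, 1841, 2602 and 3275 CPM against 4551 to 4878 CPM in unclassed cells, so the groups did not overlap. Tmem119 had 2082, 1052, 1734 and 2419 CPM, and also lay below its unclassed range of 2889.8 to 3113 CPM. Sparc had 4164, 3287, 3179.9 and 3023 CPM and Gpr34 had 4034, 2038, 2385 and 1814 CPM, both with the 3 cells of library 1 above every unclassed library.

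With TMM, 6 of the 8 genes were called lower in chemokine cells, beside 0.458% of all genes: Slc2a5 (-1.55 ± 0.37), Selplg (-1.50 ± 0.26), Tmem119 (-1.39 ± 0.27), Fcrls (-1.17 ± 0.26), Olfml3 (-1.09 ± 0.26) and Cx3cr1 (-0.94 ± 0.26). In that fit 98.1% of the 267 genes with at least 500 CPM had a negative change, with a median of -0.68. With library totals, where that median was -0.02, 0 of the 8 were called, beside 0% of all genes, and 4 had an unadjusted p under 0.05 (4.61% of all genes in either direction). Their changes were then -0.89 to -0.23, with Slc2a5, Selplg (-0.84 ± 0.22, adjusted p = 0.0603) and Tmem119 (-0.73 ± 0.23, adjusted p = 0.501) lowest. DESeq2 called 0 as well, with 3 at an unadjusted p under 0.05 (4.29% of all genes), and without library 2 the TMM fit called 0. These pools held 5 to 7 cells.

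**Figure D4:**
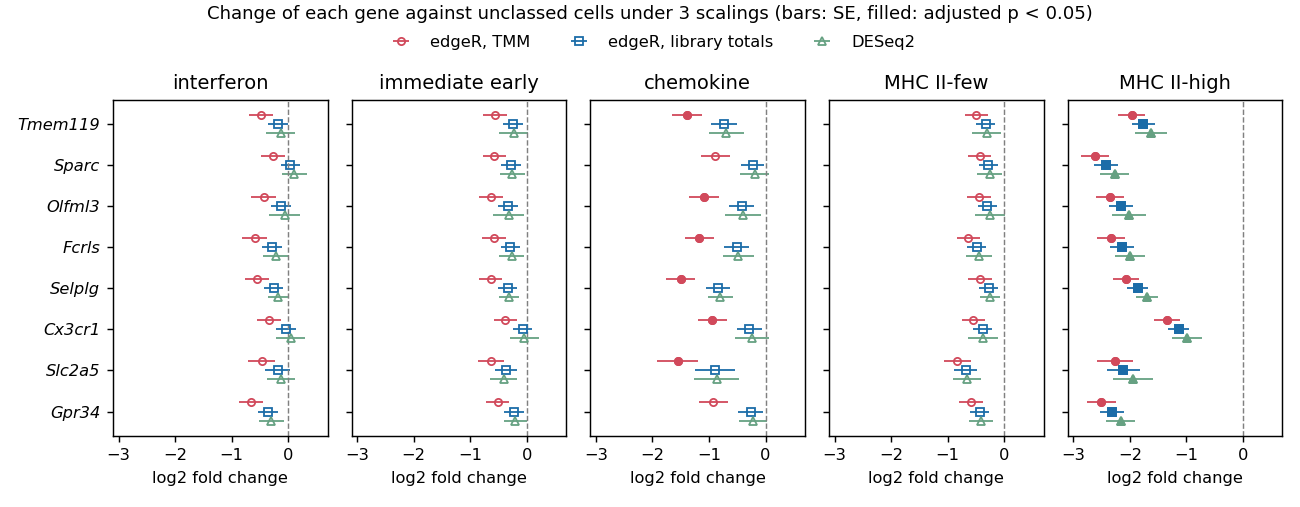
Log2 fold change of each gene against unclassed cells in 5 classes, by edgeR with TMM, edgeR with library totals and DESeq2; bars are SE and filled points have an adjusted p under 0.05. All 8 genes are filled under every scaling in MHC II-high cells, and in chemokine cells 6 genes are filled with TMM and 0 under the other scalings.

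In interferon cells the 8 genes summed to less than in unclassed cells in all 4 libraries, but none passed the test. The sum was 22499, 20784, 18224 and 20507 CPM, or 0.883 ± 0.0842 of unclassed cells. Sparc had 3322, 4342, 3527 and 3418 CPM, on either side of the unclassed levels of 3536 to 3675 CPM. Cx3cr1 had 1.04 times the unclassed level in libraries 1, 3 and 4 and 0.740 times in library 2. Gpr34 had 2145, 2107, 1344 and 1709 CPM, below 2367 to 2538 CPM in unclassed cells. Selplg had 4332, 3622, 3989 and 3532 CPM, also below every unclassed library (4551 to 4878 CPM). With edgeR, 0 of the 8 were called lower, beside 0.0262% of all genes with TMM and 0.0131% with library totals, with 5 at an unadjusted p under 0.05 with TMM and 1 with library totals (9.88% and 6.36% of all genes in either direction). In the TMM fit 95.9% of the 267 genes with at least 500 CPM, which include all 8, had a negative change. Their median was -0.33 with TMM and -0.05 with library totals. DESeq2 called 0, with 0 at an unadjusted p under 0.05. Changes were -0.65 to -0.26 with TMM, and with library totals -0.36 (Gpr34) to 0.03 (Sparc). These pools held 7 to 21 cells, and with an SE of 0.17 to 0.22 (library totals) smaller differences were not detectable.

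Immediate early cells varied between libraries, and none of the 8 genes passed the test. The 8 genes summed to 15667, 16787 and 22615 CPM in libraries 1 to 3, with 11, 11 and 6 cells, and to 21906 CPM in the 222 cells of library 4, which was 0.943 of its unclassed level, against 0.961 in library 3. In library 4, Tmem119 stood at 0.981, Sparc at 0.965 and Cx3cr1 at 0.966 of the unclassed level. The unclassed cells of library 4 themselves held 291 CPM of the genes that define this class, against 42.2 to 52.5 CPM in the other libraries. What that does to the ratios of library 4 was not tested. With edgeR, 0 of the 8 were called lower, beside 0% of all genes, with 7 at an unadjusted p under 0.05 with TMM and 1 with library totals (2.98% and 1.92% of all genes in either direction). In the TMM fit 93.3% of the 267 genes with at least 500 CPM, which include all 8, had a negative change. Their median was -0.27 with TMM and -0.003 with library totals. DESeq2 called 0, with 0 at an unadjusted p under 0.05. Changes were -0.64 to -0.38 with TMM and -0.37 to -0.08 with library totals. Without library 4 the TMM fit called 2 of the 8. In library 1, where the ratio was lowest, 4 of the 11 cells had under 5 UMIs of the 8 genes, and monocyte markers summed to 4026 CPM against 0 to 55.2 CPM in the others.

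MHC II-high cells were also compared with 3 of the other classes directly. All 8 genes were called lower in the contrast with interferon cells (beside 2.13% of all genes lower; log2 differences from -2.35 for Sparc to -1.0 for Cx3cr1) and with immediate early cells (2.39%; -2.04 to -0.96). In the contrast with chemokine cells 4 were called (0.406%), Sparc (-1.73 ± 0.29, adjusted p = 3.20e-07), Gpr34 (-1.58 ± 0.32, adjusted p = 3.44e-05), Olfml3 (-1.26 ± 0.31, adjusted p = 0.00188) and Fcrls (-1.16 ± 0.30, adjusted p = 0.00634). With library totals 7 were called there, beside 1.45% of all genes.

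**Figure D5:**
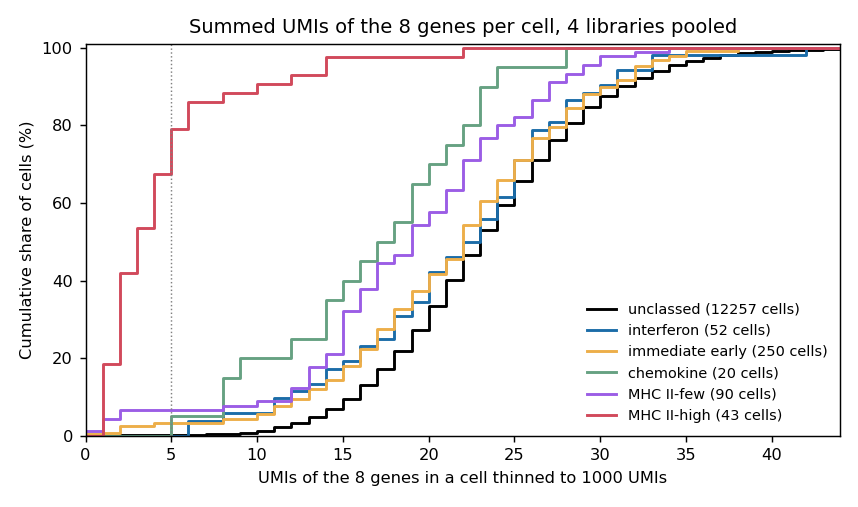
Cumulative share of cells (percent) by summed UMIs of the 8 genes in a cell thinned to 1000 UMIs, 4 libraries pooled, 1 line per class; the dotted line marks 5 UMIs. In MHC II-high cells 67.4% lie under 5 UMIs, against 0.163% of unclassed cells.

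Cells low in the genes as a group, with under 5 of their UMIs per 1000, were rare. They made up 0.601, 0.191, 0.442 and 0.973% of cells in libraries 1 to 4 (0.552 ± 0.328, SD, n = 4), 69 cells in all. Of these, 29 were MHC II-high cells (42.0%), 20 unclassed, 8 immediate early, 6 MHC II-few and 6 of several classes. Within the classes, 29 of 43 MHC II-high cells were that low (67.4%, exact 95% interval 51.5 to 80.9%), 6 of 90 MHC II-few cells (6.67%, 2.49 to 13.9%), 8 of 250 immediate early cells (3.20%, 1.39 to 6.21%) and 20 of 12257 unclassed cells (0.163%, 0.0997 to 0.252%). These intervals pool the cells of the 4 mice and cover counting error only. By library, the MHC II-high counts were 6 of 8, 2 of 7, 5 of 6 and 16 of 22 cells in libraries 1 to 4. The immediate early share rested on single libraries: it was 4 of 11, 1 of 11, 0 of 6 and 3 of 222 cells in libraries 1 to 4, 17.9% (6.06 to 36.9%) without library 4 and 1.67% without library 1. None of 52 interferon cells was (0, upper limit 6.85%), nor any of 20 chemokine cells (0, upper limit 16.8%).

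The 20 unclassed cells with so few of these UMIs were not shallow, with a median of 2639 UMIs per cell against 2441 in the other unclassed cells. Compared with those by CPM over the pooled cells, with no test, their leading genes were Chil3 (1215 against 0.254 CPM), Fabp4, Ifitm6, Gm5150, Gda, Sirpb1b, S100a6 (996 against 0.827 CPM), Cd300e, Gm9733 and Mndal. The counts of Chil3 came from 3 of the 20 cells, and those of Ifitm6 from 12. Monocyte markers summed to 4202 CPM in them (5 of 6 genes detected) and 8.42 CPM in the other unclassed cells, and border macrophage markers to 1164 against 264 CPM. Dendritic cell, neutrophil, T, NK cell and neuronal markers were at 0 there. The 13 further identity genes summed to 20619.9 CPM in these cells and 69586 CPM in the rest.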

How the data were processed

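Single-cell transcripts were measured in 4 libraries (1 per mouse). Per the labels and methods, the authors made 10x 3′ libraries and counted UMIs with Cell Ranger 2.2.0 against mm10 (GRCm38) with a filtered Ensembl annotation, and the deposited matrices hold raw UMI counts per gene and called cell, whole numbers with no normalisation. Replicates 1 to 4 follow accession order and carry no other meaning. Doublets were not called or removed.

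Cells were filtered (at least 400 genes, at most 10% mitochondrial UMIs) and thinned to 1000 UMIs with a fixed seed for values per cell. Pooled counts of genes with a mean of at least 10 CPM, without the genes that define a class, were tested with edgeR 4.0.16 (TMM, quasi-likelihood test, library as a term, Benjamini-Hochberg adjustment over 7642 genes). That pairing comes from the design, since the classes are cells of the same libraries. DESeq2 1.42.0 and other settings were alternatives. The range test used log2(CPM + 1). The tests ran in R 4.3.3, and the other values came from Python with numpy and scipy. The edgeR test was tried on simulated data with less spread than these pools and no difference between libraries. Genes were changed there only in MHC II-high, interferon and immediate early pools, so it says nothing of the chemokine calls.

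Named genes were the 8 members, up to 4 genes per list by size of change, the 10 genes with the highest and 5 with the lowest correlation with the summed members, and the 10 leading genes of low unclassed cells. An item that this rule names is not reported here. The members, lists and thresholds were chosen with earlier results of these data known. Cells are not replicates. With library as a term, p-values set class differences against a spread between pools that is estimated over all classes. They do not measure how 1 class varies between the mice. In MHC II-high cells the ratio of the summed genes ran from 0.0786 to 0.486 over the libraries, so the SE of that class may be too small. The chemokine test holds no pool of library 1.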

Additional observations from a re-analysis of the deposited data

Results flagged for a closer look

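Of 98 sets of 4 library values examined with Dixon's range test at 95%, 7 had 1 library apart, and chance flags about 1 in 20 sets. Gpr34 was higher in library 3, at 2520.3 CPM against 2355 to 2365 CPM in the others. Library 4 held fewer unclassed cells than the others, 89.8% against 98.0 to 98.4%. It also held more MHC II-high cells, 0.714% against 0.191 to 0.241%, more immediate early cells, 7.2% against 0.241 to 0.315%, and more cells of several classes, 0.616% against 0.0273 to 0.120%. In interferon cells, Cx3cr1 stood at 0.740 of the unclassed level in library 2 and at 1.04 in each of the others. The correlation of Tmem119 and Fcrls across unclassed cells was 0.0814 in library 3 and 0.0348 to 0.0402 in the others.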

How the results depend on the processing

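Among the counts and summary measures, 231 alternative values stayed within 1.5 times the reported count or within 1 SD of the reported value, and 36 did not. All 8 genes stayed lower in MHC II-high cells under all 19 alternatives (in 1 of them, without cells with border macrophage or monocyte markers, the class is 1 pool and the spread is that of other pools), and none of the 8 was called higher in any class under any alternative.

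In chemokine cells the count of 6 genes lower became 0 with library totals, with DESeq2, with a higher minimum of UMIs (1 pool left, so the lone sample is assumed to vary like the others) and with TMM factors from genes of at least 200 CPM (added after the data were seen). It became 1 over genes of at least 50 CPM, 2 with cells called on all UMIs, 2 with cells of at least 1000 genes, 2 with the deepest 1% of cells left out, 3 without the replicate block, and 0 (without library 2) to 6 when 1 library was left out; under the other alternatives it was 4 to 8. Without the replicate block no count of genes in the other classes changed. In interferon cells the count of 0 became 2 over genes with at least 1 UMI, 1 with thinned counts summed, 2 with cells of at least 1000 genes and 4 in separate fits. In MHC II-few cells it became 2 over genes with at least 1 UMI, 1 with a higher minimum (again from 1 pool), 1 with thinned counts summed and 2 in separate fits. In immediate early cells it became 1 over genes with at least 1 UMI and 0 to 2 (without library 4) when 1 library was left out. The 4 genes that differed between MHC II-high and chemokine cells became 7 with library totals, 7 with a lower minimum, 8 with cells called on all UMIs, 2 with thinned counts and 1 (without library 3) to 6 (without library 2) when 1 library was left out. The alternatives to these contrasts were chosen after the data were seen.

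The log2 fold change of Sparc in interferon cells, -0.26 in the reported fit, turned to 0.035 with library totals, 0.105 with DESeq2, 0.0713 over genes of at least 50 CPM and 0.0969 with the added TMM factors, and the log2 fold change of Cx3cr1 in interferon cells, -0.34, turned to 0.0429 with DESeq2 and 0.0202 with the added factors; none was called. The 1 gene with a library apart became 0 with TMM, with DESeq2 size factors, in unclassed cells and in cells with at least 1000 genes. The mean pairwise correlation of 0.0519 rose to 0.0895 at 2000 UMIs per cell, 0.108 with all UMIs scaled to 10000 and 0.0685 with all cells, was 0.0444 in cells with at least 1000 genes, and 0.0498 to 0.0534 when 1 library was left out. The 0.552% of cells under 5 UMIs became 0.169% among unclassed cells. Except where the scaling or the smaller pools are the change itself, the cause was not tested. Pools of 5 to 38 cells, apart from the 222 immediate early cells of library 4, limit what the class comparisons can detect.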
